A study of Mus musculus with 2 samples.

Results

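The genes described here encode matrix proteins other than collagens and laminins. They comprise fibronectin, the components of elastic fibres and their crosslinking enzymes, the matricellular and other glycoproteins, the proteoglycans, and the makers and binders of hyaluronan. They were chosen as a list of 56 genes, and a probe set was taken for a gene where the platform annotation gave that gene as its single symbol. This found 118 probe sets for 53 of the 56 genes, of 18193 genes with such a probe set on the array. Fbn1, Loxl2 and Spp1 had no probe set with a single symbol and were not analysed here.

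The study used C57BL/6 mice and compared stromal cells isolated from their uteri on pregnancy day 4, close to the time of blastocyst attachment. The control group was floxed Msx1Msx2 mice. The null group was Msx1Msx2-null mice, made by crossing floxed mice with PRcre mice, in which Cre recombinase is expressed from the progesterone receptor gene. That gene is active in uterine epithelium and muscle as well as stroma, so PRcre is not specific to stromal cells. RNA was pooled within each genotype, from 5 mice per genotype by the series design text and 4 by the extraction protocol, and each pool was hybridized to 1 array. Each value thus comes from 1 pool and carries no replicate error, and no p-value could be computed. Genotype cannot be told apart from the pooled mice or the hybridization. The control label names no Cre, so loss of Msx1 and Msx2 cannot be told apart from carrying PRcre.

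Stromal matrix is laid down as a network of fibrils on which glycoproteins and proteoglycans are assembled. Elastin is deposited on a scaffold of fibrillin microfibrils with the help of fibulins and is then crosslinked by lysyl oxidases. Small leucine-rich proteoglycans bind collagen fibrils and govern their width and spacing. Hyaluronan, a long sugar chain made at the cell surface, holds water and is organised by versican and link proteins, and the mouse uterine stroma is remodelled through these components around implantation. Syndecans and glypicans carry heparan sulfate at the cell surface, where it binds Wnt, Fgf and hedgehog ligands.

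Signals are linear MAS5 intensities, every ratio is null over control, and where 2 signals are given for a gene the control comes first. The probe set whose log2 signal was highest on average stands for a gene. A floor at the 50th percentile of each array, 31.0 for control and 30.1 for null, stands in for detection calls. Signals below it were set to the floor, and the fold is then printed as "at least". Signals of different probe sets depend on their sequence, so the values below compare the arrays and not one gene with another. Single log2 ratios had an SD of 0.27 between probe sets of a gene, from 4690 genes with at least 2 probe sets whose signals both exceeded the floor. It covers probe noise and not the spread between mice, pools or hybridizations.

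Both arrays had the same mean signal after trimming, 150.0. Msx1 was at 1581 in control and 23.0 in null cells and Msx2 at 63.7 and 14.5, both lower in the array labelled null. The sources used here do not give the position of these probe sets relative to the deletion. Pgr, the gene from which Cre is expressed, had 1891 and 2663, a log2 ratio of 0.49. Its further probe sets gave 0.24 and 0.52. Stromal fibroblast markers were present in both arrays, with 14 of 14 above the floor and a median log2 ratio of 0.10. Markers of other cell types were present as well. Endothelial markers had a median log2 ratio of -0.66 with 12 of 12 lower in the null array, pericyte markers -0.50 with 7 of 8 lower, and macrophage markers -0.45 with 11 of 11 lower. Smooth muscle markers had 0.37 with 9 of 10 higher, Myocd passing the floor in the null array alone. Epithelial markers had -0.13, with 10 of 13 lower on the brightest probe set, though Cldn3 and Epcam among these had probe sets of opposite sign. In whole-pool RNA, fewer cells of a type and less RNA per cell cannot be told apart. RNA integrity differed by 1 measure: Gapdh had a 3' to 5' signal ratio of 0.967 (control) and 1.28 (null), and Actb one of 1.80 and 2.33, higher values marking more degraded RNA.

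Of 52 matrix genes above the floor, 40 had a ratio within 1.5-fold, and the larger differences were in single genes on both sides. By the SD of a probe set, 27 of the 52 had a log2 ratio beyond 0.27 in size. The share of all genes beyond it was not computed, so this count has no background and does not set the matrix genes apart. Of the 53 genes, 52 were above the floor in at least 1 array and 50 in both. Loxl4, a lysyl oxidase, stayed below it with 12.0 and 12.1. Of the 52, 26 had a positive and 26 a negative log2 ratio, with a median of -0.0030, beside 52.3% positive and a median of 0.017 over the 11833 genes above the floor. Past 2-fold there was 1 higher gene, Hapln1, and 1 lower gene, Fmod. Each is 1.92% of the 52, near the background of 1.59% higher and 1.80% lower over all genes, and together they are 3.85% against 3.39%. Past 1.5-fold there were 6 higher and 6 lower genes, 11.5% in each direction, against 6.79% and 6.92% over all genes, or 23.1% against 13.7% in both directions together. The 6 higher were Hapln1, Eln, Gpc1, Sdc1, Tnc and Sdc4, and the 6 lower were Fmod, Has1, Thbs1, Thbs4, Mfap4 and Gpc3. Hapln1 and Thbs4 were above the floor in 1 array only, so their sign followed from the filter. Among the 50 genes above the floor in both arrays, 25 were higher and 25 lower, with 5 past 1.5-fold in each direction.

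**Figure D1:**
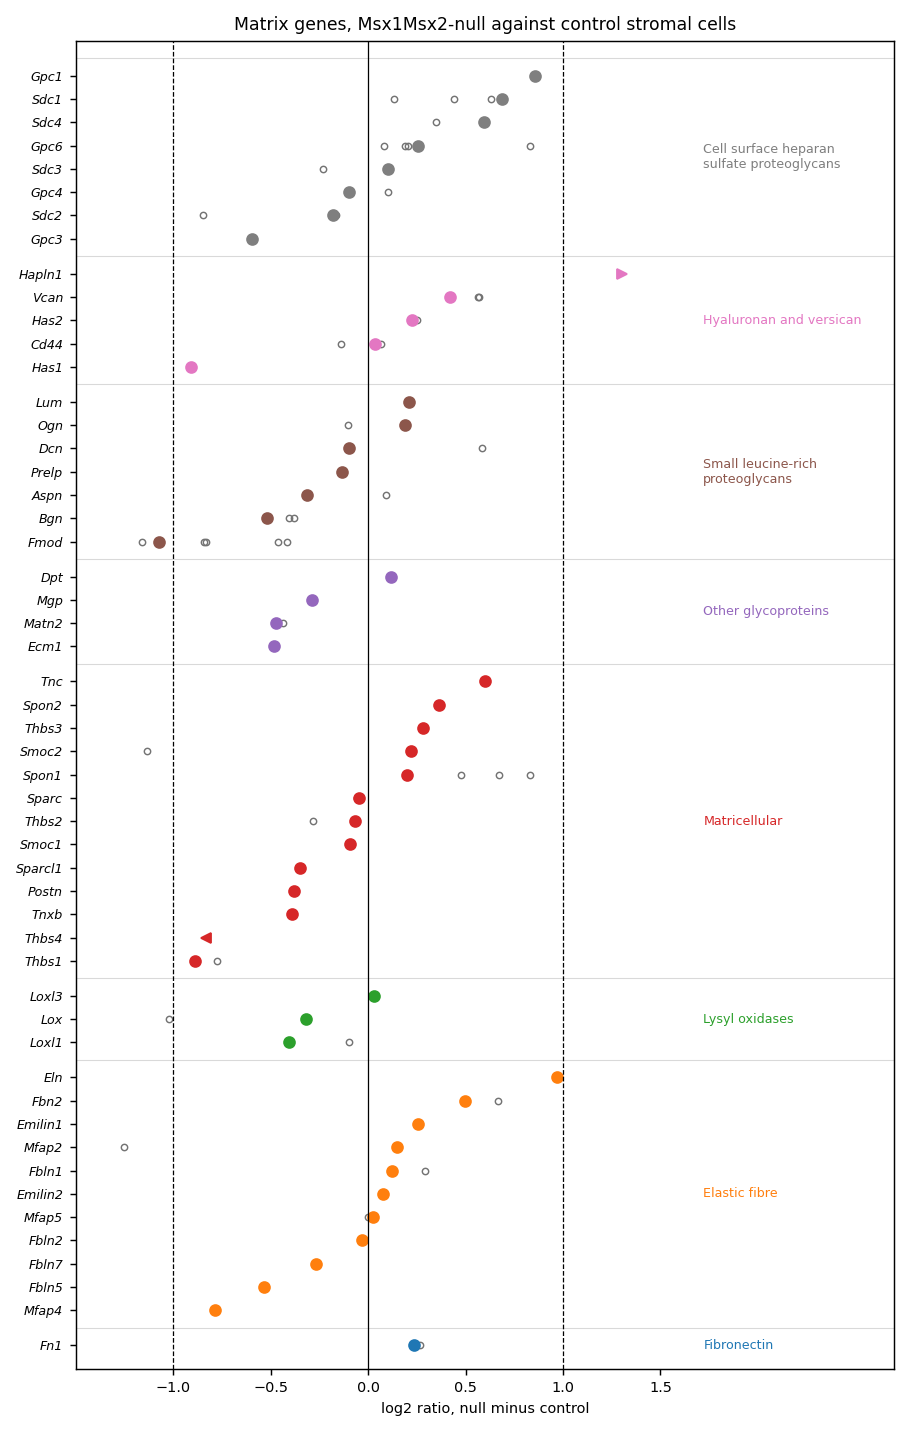
Log2 ratio of null to control signal for the 52 matrix genes above the floor, by class. Filled symbols are the representative probe sets (triangles are bounds with 1 signal under the floor), open circles are other probe sets of the gene with both signals above the floor, and dashed lines mark 2-fold. Hapln1 lies beyond 2-fold higher and Fmod beyond 2-fold lower, and every class has genes on both sides of 0 apart from fibronectin, which is a single gene.

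**Figure D2:**
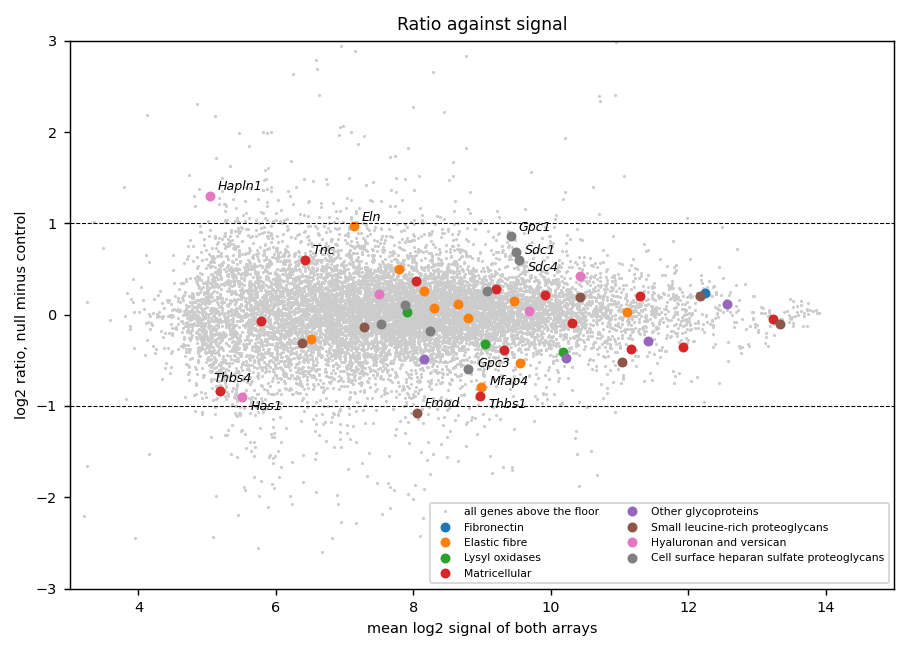
Log2 ratio of null to control signal against the mean log2 signal of both arrays. Grey points are the 11833 genes above the floor, of which 9 lie outside the plotted range, coloured points are the 52 matrix genes, and the 12 genes past 1.5-fold are named. Hapln1, Thbs4 and Has1 lie at the dim end, whereas Gpc1, Sdc1, Sdc4, Thbs1, Mfap4 and Fmod lie at moderate signal.

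The promoters of the genes past 2-fold, Hapln1 and Fmod, are shown because Msx proteins are homeodomain factors, which bind DNA at sites with a TAAT core. The outer of 2 Tnc promoters in RefSeq is added, chosen after its sequence was searched, because it holds the longer Msx-type site TAATTG. Windows of Postn, Aspn and Emilin2 hold this site too and are not shown. Each line gives the 250 bases before the transcription start in RefSeq for build GRCm38.p6, with TAAT or TAATTG on either strand (ATTA or CAATTA on the strand shown) in capitals.
Hapln1 chr13:89540386-89540635 (+ strand): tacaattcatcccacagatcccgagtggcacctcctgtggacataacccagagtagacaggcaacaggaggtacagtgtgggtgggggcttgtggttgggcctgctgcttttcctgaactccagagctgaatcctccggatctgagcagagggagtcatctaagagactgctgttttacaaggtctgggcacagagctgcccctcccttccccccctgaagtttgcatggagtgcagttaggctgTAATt
Fmod chr1:134037004-134037253 (+ strand): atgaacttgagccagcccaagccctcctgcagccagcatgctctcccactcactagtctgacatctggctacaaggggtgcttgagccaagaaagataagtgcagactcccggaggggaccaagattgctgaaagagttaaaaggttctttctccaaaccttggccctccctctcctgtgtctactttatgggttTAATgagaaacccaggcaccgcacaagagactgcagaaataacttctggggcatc
Tnc chr4:64047016-64047265 (- strand): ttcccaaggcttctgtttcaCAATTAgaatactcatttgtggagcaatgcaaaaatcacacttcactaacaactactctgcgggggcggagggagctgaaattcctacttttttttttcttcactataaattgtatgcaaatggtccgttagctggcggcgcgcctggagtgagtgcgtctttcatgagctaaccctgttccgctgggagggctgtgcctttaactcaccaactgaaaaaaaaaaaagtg

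The match lies 5 bases before the start in Hapln1, 55 in Fmod and 230 in Tnc, counted from its first base. RefSeq promoters were found for 33 of the 56 genes, in 40 windows, some of which overlap. TAAT was present in 21 of the 40 windows, 52.5%, against 54.9% of 32851 windows of the same length over all genes. TAATTG, which contains TAAT, was present in 4 of the 40, 10.0%, against 7.17% of all windows. The 4 windows belong to Tnc, Postn, Aspn and Emilin2, with log2 ratios of 0.60, -0.38, -0.31 and 0.078. Aspn had 0.09 on its other probe set. Only Tnc of these genes was past 1.5-fold. These matches are descriptions of sequence, and binding was not measured.

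Elastic fibre genes lay on both sides of 0, with Eln the furthest higher and Mfap4 the furthest lower. Fn1, the adhesive glycoprotein that integrins assemble into fibrils, had a signal of 4489.6 in control and 5279.7 in null cells, 1.18-fold higher, and its second probe set gave 0.27 on the log2 scale. Of 11 elastic fibre genes above the floor, 7 were higher and 4 lower on the brightest probe set. That is 63.6% higher beside 52.3% over all genes. Among the 7, Mfap2 and Mfap5 had probe sets of opposite sign. The median log2 ratio of the 11 was 0.078, and 0.012 when the probe sets of a gene were summarised by their median. Both are well under the SD of a probe set, which describes a single ratio and is not the error of a median. Eln, the elastic core protein, had signals of 101 and 198, 1.96-fold higher on probe set 1420855_at. Its other probe set stayed below the floor, with 5.16 and 21.4. Elastin is also made by smooth muscle, whose markers summed to a signal of 11123 in control and 14847 in null cells, and their part in this value was not tested.

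The microfibril genes went in both directions. Fbn2, a fibrillin that forms the microfibril backbone, had signals of 186 and 262, a log2 ratio of 0.50, and 0.67 on its second probe set. Emilin1 and Emilin2, glycoproteins at the surface of elastic fibres, had log2 ratios of 0.26 and 0.078. Mfap4, a microfibril-associated protein that binds elastin and collagen, had signals of 664 in control and 385 in null cells and was 1.73-fold lower. Mfap5, a microfibril-associated glycoprotein, was nearly equal at 2183 and 2222, with log2 ratios of 0.026 and -0.0024 on its probe sets. Mfap2, its relative, disagreed between probe sets: 1417359_at read 671 and 744, or 0.15 in log2, and 1447833_x_at 73.8 and 31.0, or -1.25, its null signal lying just above the floor.

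Among the fibulins, which link elastin to microfibrils and basement membranes, the sign also varied. Fbln5, which is needed for elastic fibre assembly, had signals of 907 and 626, a log2 ratio of -0.53. Fbln7 had -0.26, Fbln2 -0.032 and Fbln1 0.12, with 0.29 on the second Fbln1 probe set. Elastin and Fbn2 thus had higher signals in the null array, and Fbln5 and Mfap4 lower ones.

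The lysyl oxidases, copper enzymes that crosslink elastin and collagen, were lower in 2 of 3 cases. That is 33.3% higher, beside 52.3% over all genes. Loxl1, which acts mainly on elastin, had signals of 1333 and 1005, a log2 ratio of -0.41, and -0.10 on a dim second probe set. Lox had 587 and 472, or -0.32, on its first probe set and 272 and 134, or -1.02, on 1448228_at. Both Lox probe sets were lower in the null array, with sizes that differ by more than the SD of a probe set. Loxl3 was equal within that SD, at 236 and 241. The median of these 3 genes was -0.32.

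The matricellular genes encode proteins that signal to cells rather than build fibrils. Of 12 above the floor in both arrays, 5 were higher and 7 lower on the brightest probe set, with a median log2 ratio of -0.057. Over all genes above the floor in at least 1 array 52.3% were higher, and the share over those above it in both arrays was not computed. The 5 include Smoc2, whose probe sets had opposite signs. Thbs1, thrombospondin 1, an activator of latent TGF-beta and inhibitor of angiogenesis, had signals of 680.4 in control and 368 in null cells, 1.85-fold lower. Its second probe set gave 282 and 164, a log2 ratio of -0.78, so both read lower by a similar amount. Thbs1 is also induced rapidly by serum and stress. Of 14 immediate early genes above the floor, 13 were lower in the null array, with a median of -0.48 and a summed signal of 41859.5 in control and 31092 in null cells over the 15 genes on the array. Their part in the Thbs1 value was not tested.

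The other thrombospondins differed among themselves. Thbs2 had signals of 56.6 and 54.0, a log2 ratio of -0.068, with -0.28 on its second probe set. Thbs3 had 534 and 649, a log2 ratio of 0.28. Thbs4, which is found in tendon, muscle and vessels, was dim at 53.5 in the control and under the floor at 25.0 in the null array, at least 1.78-fold lower. Only Thbs1 of these 4 was past 1.5-fold with both signals above the floor.

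Tnc, tenascin C, a matrix protein of remodelling tissue that weakens cell adhesion to fibronectin, had signals of 69.8 and 106 and was 1.52-fold higher. Its second probe set was under the floor in both arrays. A floor at the 65th percentile lowered the Tnc log2 ratio from 0.60 to 0.37. Tnxb, tenascin X, which binds collagen fibrils, went the other way, with 729 and 556 and a log2 ratio of -0.39. Postn, periostin, which recruits lysyl oxidase activity to collagen, had 2629 and 2021, or -0.38.

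In the SPARC family of calcium-binding glycoproteins, Sparc and Smoc1 stayed close, whereas Sparcl1 was lower and Smoc2 differed between probe sets. Sparc had signals of 9814 and 9511, a log2 ratio of -0.045, with -0.054 on its second probe set, which makes it among the most even of these genes. Sparcl1, which is also expressed by vascular cells, had 4398 and 3452, or -0.35. The summed signal of endothelial markers was 5575 in control and 3706 in null cells and that of pericyte markers 9397 and 6589.7, and their part in the Sparcl1 value was not tested. Smoc1 had 1311 and 1229.9, a log2 ratio of -0.092. Smoc2 had opposite signs on its probe sets, 899.7 and 1046 on 1415935_at and 207 and 94.2 on 1431362_a_at, log2 ratios of 0.22 and -1.14, so no direction is given for it.

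The spondins, secreted adhesion proteins, were higher. Spon1 had 2360.2 and 2711 on its brightest probe set, or 0.20 in log2. All 4 of its probe sets were higher, and the dimmer 3 gave 0.48, 0.67 and 0.83. Spon2 had 233 and 299.9, or 0.37.

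Among other glycoproteins, 3 of 4 were lower, with a median log2 ratio of -0.38. That is 25% higher, beside 52.3% over all genes. Matn2, a filament-forming matrilin, had signals of 1413 and 1018, a log2 ratio of -0.47, and -0.44 on its second probe set. Ecm1, a secreted glycoprotein that binds perlecan and fibulin 1, had 336 and 240.4, or -0.48. Mgp, matrix Gla protein, an inhibitor of calcification and of BMP signalling, had 3005 and 2460.1, or -0.29. Dpt, dermatopontin, which promotes collagen and fibronectin fibril formation, was the exception at 5797 and 6291, or 0.12.

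Small leucine-rich proteoglycans were lower in 5 of 7 cases on the brightest probe set, with a median of -0.13. That is 28.6% higher, beside 52.3% over all genes. Of the 7, Dcn, Aspn and Ogn had probe sets of opposite sign. Fibromodulin was the single gene of the class past 2-fold. Fmod, which binds collagen I and steers its crosslinking by lysyl oxidase, had signals of 386 in control and 184 in null cells for 1456084_x_at, 2.10-fold lower. It had 6 probe sets above the floor, and all 6 were lower, with log2 ratios from -1.16 to -0.42. The smallest ratio was that of 1415939_at, at 93.3 and 69.8, which is the 1 probe set of the 6 not designated _x_at, a suffix for probes that may also match other transcripts. Its value of -0.42 is 1.34-fold lower, so the direction was common to all probe sets and the 2-fold size was not.

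Bgn, biglycan, a proteoglycan that also signals to innate immune receptors, had signals of 2513 and 1751, a log2 ratio of -0.52, and -0.41 and -0.38 on 2 further probe sets. Its 3 probe sets lay within the SD of a probe set of each other and were all lower. Dcn, decorin, its close relative, had 10705 and 10002, or -0.10, on the bright probe set and 71.1 and 107, or 0.58, on a dim one, so the sign depends on the probe set. Lum, lumican, which competes with fibromodulin for collagen, had 4287 and 4953, a log2 ratio of 0.21.

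The remaining members of the family showed small ratios. Prelp, which anchors collagen to basement membrane, had 164 and 149, a log2 ratio of -0.13. Ogn, osteoglycin, had 1285 and 1465, or 0.19, on 1419663_at and 783 and 728, or -0.10, on 1419662_at. Aspn, asporin, an inhibitor of TGF-beta, was dim at 92.3 and 74.4, with -0.31 and 0.09 on its probe sets. Neither Ogn nor Aspn had a sign common to its probe sets.

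The hyaluronan and versican class had 4 genes measured above the floor on each array. On the brightest probe set Vcan, Has2 and Cd44 were higher and Has1 lower, beside 52.3% higher over all genes above the floor in at least 1 array. The share over all genes above it in both arrays was not computed. Cd44 had probe sets of both signs. The median log2 ratio of the 4 was 0.13, under the SD of a probe set, which describes a single ratio and is not the error of a median. Hapln1, the link protein that locks versican onto hyaluronan, had a signal of 14.2, under the floor, in control and 76.6 in null cells for 1438020_at, at least 2.47-fold higher. Its other 3 probe sets were below the floor throughout, with 14.1, 11.9 and 10.4 in the control and 25.7, 22.7 and 21.9 in the null array. All 4 read higher in the null array, and only 1 of these readings was above the floor. A floor at the 65th percentile left this probe set below it in each array.

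Vcan, versican, the large proteoglycan that binds hyaluronan, was higher on all 3 probe sets above the floor. Its signals were 1194 and 1597 on the brightest, a log2 ratio of 0.42, and the other two gave 0.57 and 0.57. Has2, the main hyaluronan synthase of the decidualizing stroma, had 167 and 195, a log2 ratio of 0.22, with 0.25 on its second probe set. Has1, another synthase, had 62.3 in control and 33.2 in null cells, close to the floor, and was 1.88-fold lower on its single probe set. Cd44, the hyaluronan receptor, was even, at 811 and 831, with log2 ratios of 0.036, 0.065 and -0.14.

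Cell surface heparan sulfate proteoglycans had 3 of 8 genes past 1.5-fold higher and 1 lower, beside 6.79% and 6.92% of all genes. The median log2 ratio of the 8 was 0.18, under the SD of a probe set, and 0.10 when the probe sets of a gene were summarised by their median. That SD describes a single ratio and is not the error of a median. Gpc1, a glypican held in the membrane by a lipid anchor, had signals of 510.3 in control and 924 in null cells, 1.81-fold higher on its single probe set. Gpc3, a glypican that restrains hedgehog signalling, had 547 and 362 and was 1.51-fold lower, just past the 1.5-fold line. The glypicans thus included genes on both sides. Gpc6 was higher on all 5 of its probe sets, with 494 and 590.0 on the brightest and log2 ratios from 0.082 to 0.83. Gpc4 had 192 and 179, a log2 ratio of -0.10, on 1 probe set and 57.8 and 62.1, or 0.10, on the other, with no common sign.

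Syndecans are the transmembrane members of this class. Sdc1, the syndecan typical of epithelia and plasma cells, had signals of 566 and 913, 1.61-fold higher on probe set 1437279_x_at. All 4 of its probe sets were higher, with log2 ratios from 0.13 to 0.69. Sdc4, which works with integrins at focal adhesions, had 603 and 911, 1.51-fold higher, and 0.35 on its second probe set. Both genes are also expressed in epithelium. Of 13 epithelial markers, 3 were higher and 10 lower in the null array on the brightest probe set. Among the 10, Cldn3 and Epcam had probe sets of opposite sign. Their summed signal was 16268 in control and 9875 in null cells, of which Spink1 held 4657 and 85.2. The 3 higher were Krt19 at 1.04, Cldn7 at 0.91 and Elf3 at 0.81 in log2 ratio. The 10 lower ran from Spink1 at -5.77, Foxa2 at -2.18, Krt18 at -1.06, Krt7 at -0.56 and Krt8 at -0.40 to 5 between -0.16 and -0.02. The part of these markers in the Sdc1 and Sdc4 values was not tested. Sdc2, a syndecan of mesenchymal cells, had 322 and 285, a log2 ratio of -0.18, and 2 further probe sets gave -0.17 and -0.85. Sdc3 had 228 and 245, or 0.10, on its brightest probe set and 35.9 and 30.6, or -0.23, on the next, with opposite signs.

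Of the 52 genes, 27 had at least 2 probe sets with both signals above the floor. The log2 ratio of the second brightest had the sign of the brightest in 19 of 27, 70.4%, beside 63.9% of the 4690 genes with such a pair. The 8 with opposite signs were Aspn, Dcn, Gpc4, Mfap2, Mfap5, Ogn, Sdc3 and Smoc2, and Cd44 had another, dimmer probe set of opposite sign. Of the 12 genes past 1.5-fold, Fmod, Thbs1, Sdc1 and Sdc4 had a second probe set of this kind, with the same sign in each. The other 8 rest on 1 probe set.

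**Figure D3:**
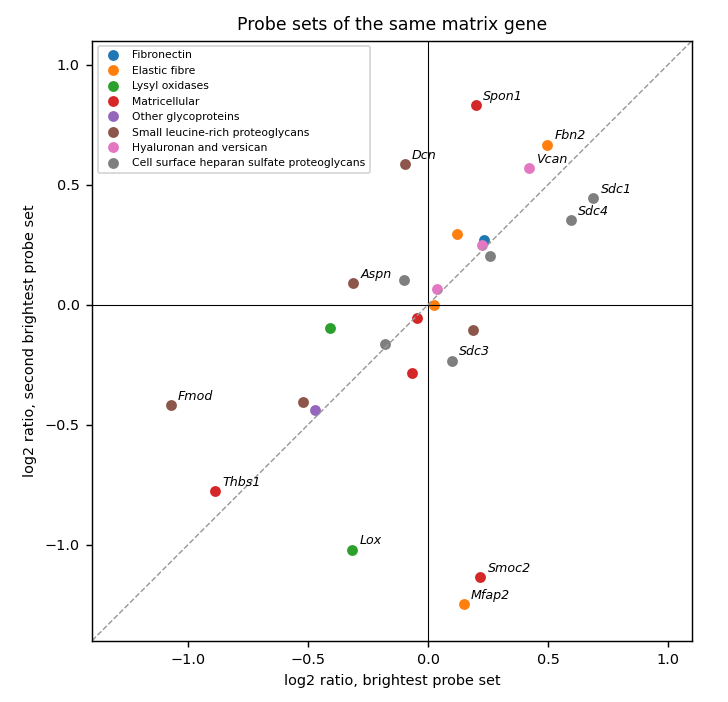
Log2 ratio of the second brightest against the brightest probe set for the 27 matrix genes with all 4 of these signals above the floor. Colours are classes and the dashed line marks equality. Fbn2, Vcan, Sdc1, Sdc4 and Thbs1 lie near the line, whereas Mfap2 and Smoc2 lie in the lower right quadrant, below -1 on the second probe set.

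Other genes of matrix assembly were described from 6 lists that share no gene with the 56. As background, over all genes above the floor in at least 1 array 52.3% were higher and 3.39% were past 2-fold in either direction. Of 10 further genes listed for elastic fibres and latent TGF-beta binding and above the floor in both arrays, 4 were higher, 6 lower and 0 past 2-fold, with a median log2 ratio of -0.035. The 6 include Fap, at -0.12, which belongs to neither group. Adamtsl2 passed the floor in the null array alone. Efemp1, a fibulin-like glycoprotein, had 3233 and 2811, or -0.20. Of 18 further glycoproteins, 8 were higher, 10 lower and 0 past 2-fold, with a median of -0.078. Igfbp7, a vascular and stromal matrix protein, had 9929 and 7988, or -0.31. Ccn4, a matricellular gene induced by Wnt signalling, chosen after its value was seen, had 50.8 and 100, a log2 ratio of 0.98, with 0.37 on its second probe set. Of 18 further proteoglycan core genes on the array, 4 were above the floor in both arrays, 3 higher and 1 lower, with a median of 0.21 and 0 past 2-fold. Omd and Esm1 passed the floor in the null array alone. Srgn, the proteoglycan of secretory granules in blood cells, had 4773 and 5928, or 0.31.

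Enzymes that build or modify the sugar chains of proteoglycans, a list that includes the sulfatases Sulf1 and Sulf2, were evenly divided. Of 30 above the floor in both arrays, 15 were higher and 15 lower, with a median of -0.0084. Hs3st3b1 passed the floor in the control array alone. Hs3st1, which adds a rare sulfate to heparan sulfate, was the single one past 2-fold, with 134 in control and 306 in null cells, 2.29-fold higher on 1 probe set. This 1 of 30 stands beside 3.39% of all genes past 2-fold in either direction, and the even split beside 52.3% higher. Chsy1, a chondroitin synthase, had 1436 and 1765, or 0.30. Chst11, which sulfates chondroitin, had 226 and 426, or 0.92, and Sulf1, which trims sulfate from heparan sulfate outside the cell, had 673 and 403, or -0.74, with -0.70 on its second probe set. Chst11 and Sulf1 were chosen after their values were seen.

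Of 8 genes for hyaluronan turnover and binding above the floor, 5 were higher and 3 lower, with a median of 0.078. For this and the next list the background over all genes was 52.3% higher and 3.39% past 2-fold in either direction. Hmmr, a hyaluronan-binding protein that also acts at the mitotic spindle, had 124 and 261, 2.10-fold higher, whereas its other probe sets above the floor gave 0.22 and -0.071. Itih5, a hyaluronan-binding inter-alpha-trypsin inhibitor chain, had 1909 and 2037, or 0.093. Of 5 Adamts proteases that cleave versican and related proteoglycans and were above the floor in both arrays, 1 was higher and 4 lower, with a median of -0.36 and 0 past 2-fold. Adamts20 passed the floor in the null array alone. Adamts1, a progesterone-regulated versican protease, had 2128 and 1655, or -0.36.

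**Figure D4:**
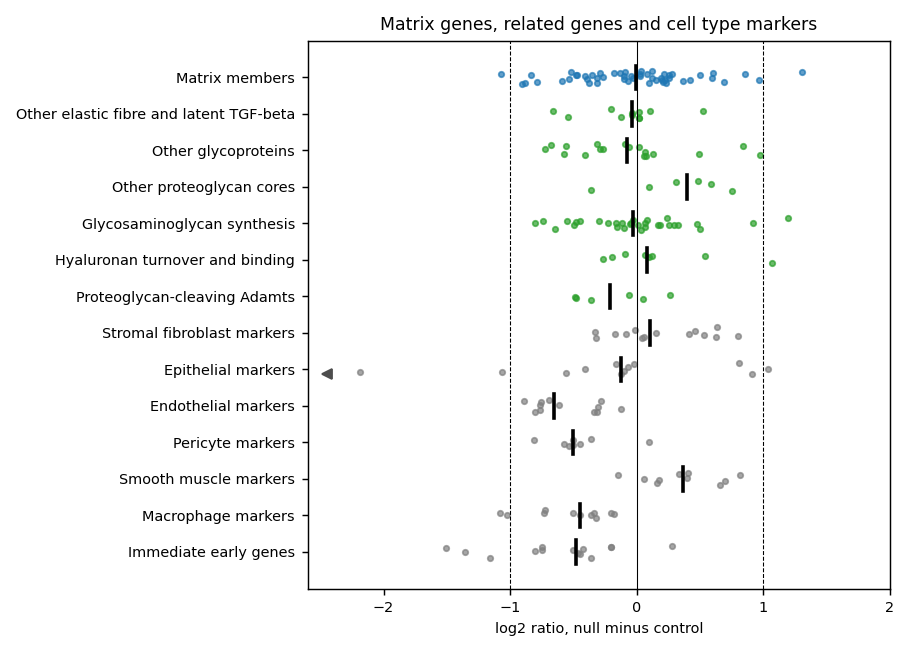
Log2 ratios of the matrix genes (blue), the 6 related lists (green) and the marker and immediate early lists (grey), with 1 point per gene above the floor and a black bar at the median. Values with 1 signal under the floor are plotted at their bound, the triangle is Spink1 at -5.77 beyond the axis, and dashed lines mark 2-fold. The matrix genes centre near 0, while endothelial, pericyte, macrophage and immediate early lists lie mostly below it and smooth muscle markers mostly above.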

How the data were processed

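The authors deposited an intensity for each probe set of each array on a linear scale. The submitters' processing notes name MAS5 and Affymetrix Expression Console 1. MAS5 subtracts mismatch signal, which makes ratios of dim probe sets unstable. The sources used here do not give the background and scaling settings. Without the top and bottom 2% of probe sets, both arrays averaged 150.0.

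Of 45101 probe sets, 64 were controls, and 34945 had 1 gene symbol in the platform annotation, 932 several and 9160 none. The symbols of all 53 matrix genes matched their Entrez IDs in the RefSeq gene table of GRCm38.p6. Ratios were taken on the log2 scale with no added normalization (Python 3.11.15, pandas 2.3.3). Genes were called by size at 2-fold above the floor, with 1.5-fold beside it, since 1 array per group allows no test. The script was tested on simulated data with known folds.

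Text values were given for every matrix gene, with signals for those past 1.5-fold, those with the highest signal in a class and those with probe sets of opposite sign, and for genes past 2-fold or with the highest signal in a related list. The matrix genes, classes, related lists, markers and thresholds were chosen with earlier results of these data known. Alternatives were the floor, the probe set rule and the scaling between arrays.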

Additional observations from a re-analysis of the deposited data

How the results depend on the processing

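The count of matrix genes past 2-fold rested on Hapln1 and Fmod and changed with the processing. With no floor 2 genes were past 2-fold lower, and over all genes 1797 were higher and 1772 lower. With a floor at the 65th percentile 0 matrix genes were past 2-fold higher, and over all genes 97 were higher and 123 lower. With only genes above the floor in both arrays, a restriction chosen after seeing the data and used for several counts above, 0 were higher. When the probe sets of a gene were summarised by their median, and without _x_at and _s_at probe sets, 0 were lower, and Fmod had -0.42 in the latter. At 1.5-fold there were 6 in each direction. The median log2 ratio of the matrix genes stayed close to 0 and changed sign, being 0.0054 with no floor, 0.028 with the higher floor, 0.026 without _x_at and _s_at probe sets, 0.011 after quantile normalization and 0.0062 after centring. The class medians moved by less than the SD of a probe set and kept their sign under every alternative run. All 12 genes past 1.5-fold kept their sign under each alternative in which they were measured, while Dcn, Gpc4, Mfap2, Sdc3, Smoc2 and Sparc changed sign under at least 1. For the 12 this was largely fixed in advance and is no support. Most rest on 1 probe set, so the probe set rules could not change their sign. Hapln1 and Thbs4 took their sign from the filter, and the higher floor removed Hapln1, Thbs4 and Has1. No paired analysis was possible because each genotype had 1 array. Signal over background limits Hapln1, Thbs4 and Has1, which lie near the floor. It also limits Tnc, whose control signal was 69.8. With the higher floor its log2 ratio was 0.37 in place of 0.60, which is under 1.5-fold.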
